A study of Mus musculus with 20 samples.

Results

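The primitive streak transcription factors described here were T, Eomes, Mixl1, Mesp1, Mesp2, Gsc, Lhx1, Tbx6 and Msgn1. These 9 genes were taken by symbol, whatever their level, from the 55573 genes of the deposited count matrix, of which 33860 had a count above 0 in at least 1 library. RNA sequencing covered 4 mouse induced pluripotent stem cell (iPSC) lines during embryoid body (EB) differentiation, with 1 library per line on each of days 0, 3, 5, 7 and 14, 20 libraries in all. WT#1-4 and WT#20D-17 were wild type, and Nox4-/- #5-8 and Nox4-/- #5-23 lacked Nox4, an NADPH oxidase that produces reactive oxygen species. Per the study's methods, iPSCs were kept in LIF on mitomycin C-treated embryonic fibroblast feeders, and transduced cells were selected with puromycin when lines were made. No drug is named for the EB cultures that were sequenced. WT#1-4 and both Nox4-/- lines came from embryonic fibroblasts transduced with Oct4, Sox2, Klf4 and c-Myc, so each line stands for 1 reprogramming event. The study's methods do not describe the origin of WT#20D-17, whose labels give only its genotype and line. EBs formed in hanging drops without LIF for 3 days and were then plated on gelatin. The labels name the last day 14 in the sample titles and 10 in the protocol. They do not settle whether day 0 is the undifferentiated line or the EB at plating, so days are given as in the titles.

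The primitive streak is the region of the mouse epiblast where cells leave the epithelium and become mesoderm and definitive endoderm at gastrulation. Nodal, Wnt and BMP signals induce it, and its transcription factors are switched on in a sequence. Eomes, Mixl1 and T mark the streak itself, Gsc and Lhx1 its anterior part and the axial and endodermal cells that leave it, Mesp1 and Mesp2 the nascent mesoderm, and Tbx6 and Msgn1 the presomitic mesoderm.

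Promoter windows are shown because 7 of the 9 genes were highest in the same library, WT#20D-17 on day 3, in the values given further on. RefSeq windows (GRCm38.p6, 250 bases before to 50 after each start) were found for 8 of the 9 genes. They were searched on both strands for TCF/LEF motifs (CTTTGAT and CTTTGAA), a FOXH1 motif (AATNNACA) and a T-box motif (AGGTGTGA), the factors that read Wnt, Nodal and T-box input. At least 1 motif was found in 4 of the 8 windows, those of T, Mesp1, Mesp2 and Msgn1. CTTTGAT, found in Mesp1 and Msgn1, occurred in 3.73% of all 32851 windows, and CTTTGAA, found in T, Mesp1 and Msgn1, in 5.13%. AATNNACA, found in Mesp2, occurred in 12.2% and AGGTGTGA, found in Mesp1, in 1.27%. The Mesp1 matches began at positions -73, -31 and 5 from the RefSeq start, and the Mesp2 match at 24. All of these lay past the annotated start of their gene. The share of all windows with at least 1 of these motifs was not computed, so 4 of 8 has no like share beside it. The part upstream of the annotated gene start is printed for T, which has 1 TCF/LEF match, for Msgn1, which has 2, and for Lhx1, which has none although it too was highest on day 3 in WT#20D-17. Capitals mark the matches, and each sequence is written 5′ to 3′ on the gene's own strand.
T, chr17:8434173-8434422, plus strand: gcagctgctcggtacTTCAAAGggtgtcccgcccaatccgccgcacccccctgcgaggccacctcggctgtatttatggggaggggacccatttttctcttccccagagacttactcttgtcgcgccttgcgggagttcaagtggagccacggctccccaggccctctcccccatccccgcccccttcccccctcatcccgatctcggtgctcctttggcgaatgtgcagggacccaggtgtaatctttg
Msgn1, chr12:11208973-11209198, minus strand: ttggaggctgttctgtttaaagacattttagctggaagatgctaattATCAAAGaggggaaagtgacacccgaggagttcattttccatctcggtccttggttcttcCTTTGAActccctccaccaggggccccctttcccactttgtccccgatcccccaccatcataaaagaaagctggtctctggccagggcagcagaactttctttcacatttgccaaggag
Lhx1, chr11:84525536-84525784, minus strand: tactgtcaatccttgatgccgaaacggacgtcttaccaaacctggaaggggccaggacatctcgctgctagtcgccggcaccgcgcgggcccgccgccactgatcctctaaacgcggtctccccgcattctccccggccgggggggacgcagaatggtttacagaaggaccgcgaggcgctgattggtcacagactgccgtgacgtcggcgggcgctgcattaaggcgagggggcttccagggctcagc
The T match lies at positions -235 to -229 from the RefSeq start, and those of Msgn1 at -203 to -197 and -143 to -137. A match is a description of the letters and not of a bound site.

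Library totals ran from 20294981 to 27708036 counts, with a median of 23878873. Levels are counts and TMM CPM (the count relative to library size, after trimmed mean of M-values scaling), with 95% Wilson intervals that cover counting error only. A gene at or under the floor of 3 counts (0.111 to 0.154 CPM, depending on the library) was treated as not detected above counting noise. Nox4 itself had 56 to 203 counts in WT#20D-17 and 3 to 22 in WT#1-4. It had at most 2 counts in any of the 10 Nox4-/- libraries. The lines did not all carry the markers of their label. On day 0, Nanog, a core factor of naive pluripotency, had 9335 counts in WT#20D-17, 1 in WT#1-4, 9 in Nox4-/- #5-8 and 4 in Nox4-/- #5-23. The summed level of 6 naive pluripotency genes was 929 CPM in WT#20D-17 on day 0 and at most 17 CPM in any of the 15 libraries of the other 3 lines, where Zfp42 and Dppa3 stayed at or under the floor. The summed level of a neural list of 7 genes was 17.3 to 115 CPM in WT#20D-17 and 518 to 1370 CPM in the others. Stmn2 made up most of the sum on day 0, at 71.8 CPM in WT#20D-17 and 758 to 1100 CPM in the others. Sox1 and Pax6 were also lower in WT#20D-17 on day 0. Tubb3 (15.9 CPM against 2.34 to 9.58) and Neurod1 (4.67 CPM against at most 0.45) were higher there. Map2 lay within the range of the other lines that day, and Tbr1 was at most 0.0813 CPM. Line and starting state cannot be told apart, so the tests of genotype and of day are given with and without WT#20D-17. In bulk RNA, more cells of a type and more RNA per cell cannot be told apart either.

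By the joint presence of these factors, a streak stage showed in WT#20D-17 on day 3 and in no library of the other 3 lines. In WT#20D-17 on day 3, 8 of the 9 factors were at 1 CPM or more and the ninth, Msgn1, was above the floor. The same line had 6 factors at 1 CPM or more on day 0, 6 on day 5, 5 on day 7 and 3 on day 14. Every library of WT#1-4, Nox4-/- #5-8 and Nox4-/- #5-23 had 1 or 2, which were Eomes and Tbx6 except for Gsc in Nox4-/- #5-23 on day 0. The summed level of the 9 factors in WT#20D-17 was 64.8, 284, 84.6, 85.0 and 13.1 CPM on days 0, 3, 5, 7 and 14. It was 3.38 to 18.5 CPM in the 15 other libraries, so only the day 14 library of WT#20D-17 fell within their range. T, Eomes, Mixl1, Mesp1, Gsc, Lhx1 and Msgn1 reached their highest level of all 20 libraries in WT#20D-17 on day 3. Of all 33860 genes, 4.76% were highest there (3.61% of the 20687 genes with at least 10 counts in a library). For each of these 7 genes the day 3 interval did not overlap that of any other day of the line. The share of all genes with such a day 3 interval was not computed. The intervals cover counting error only, so this count has no like share beside it. With 1 library per line and day there is no replicate of this library.

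**Figure D1:**
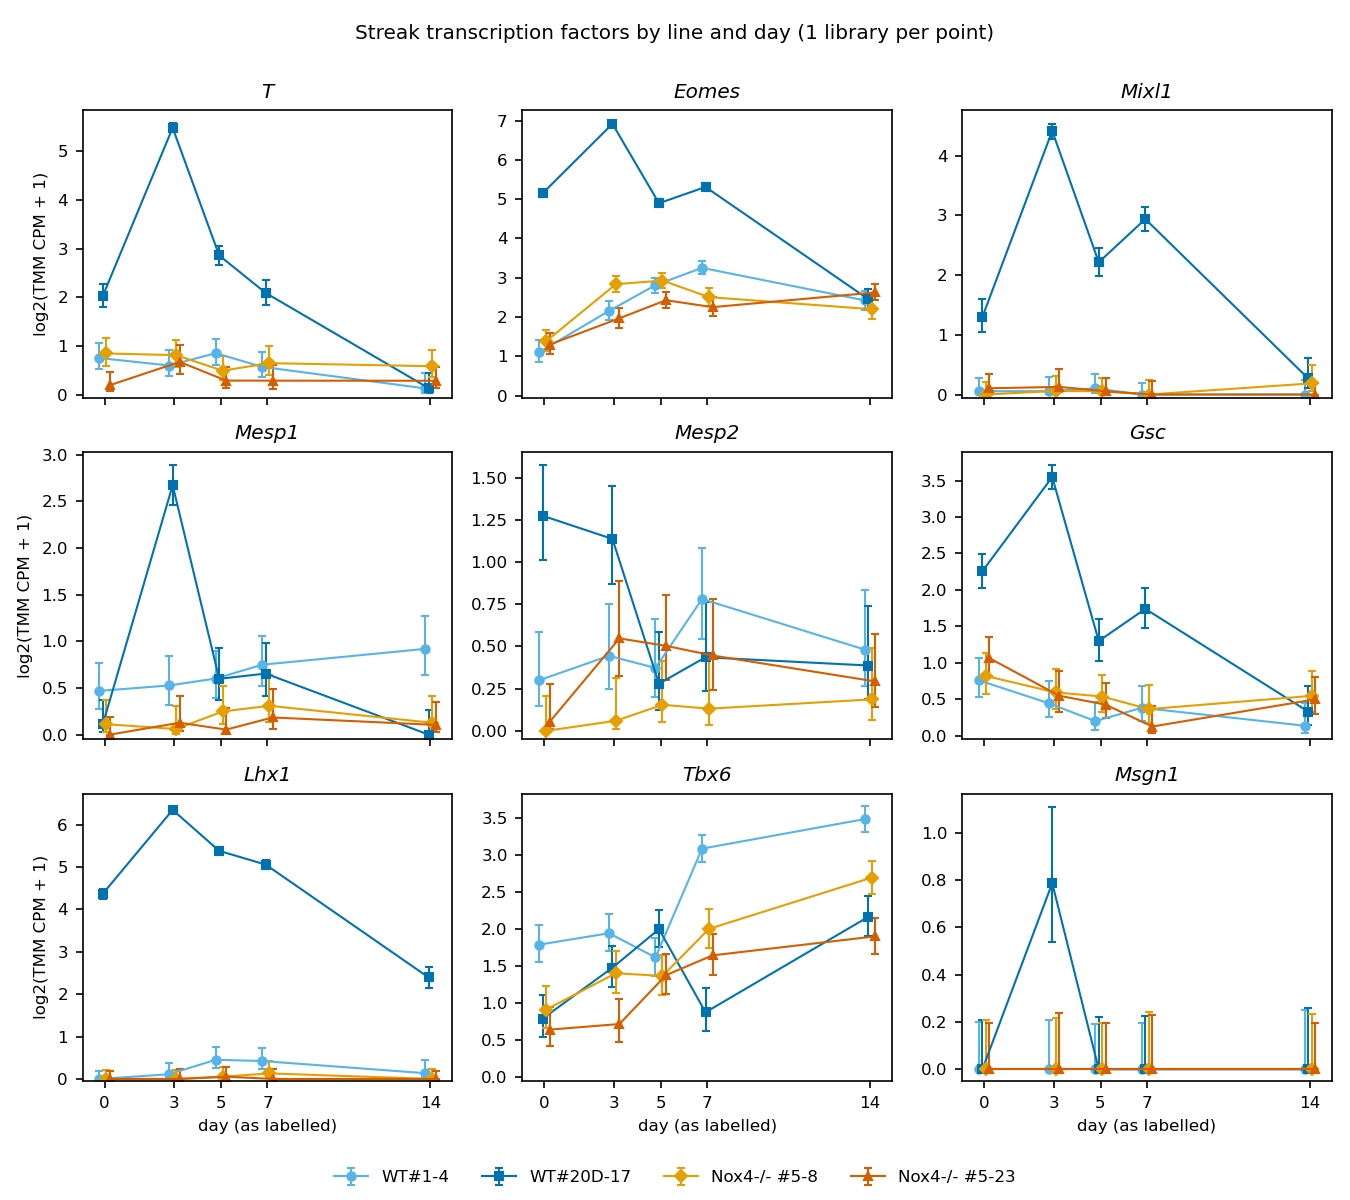
Level of the 9 factors by day, as log2(TMM CPM + 1) on the vertical axis and labelled day on the horizontal axis, with 1 point per library, colour and marker by line, and 95% Wilson bars for counting error. WT#20D-17 stands above the other lines on day 3 in 8 panels, while in the Tbx6 panel WT#1-4 is highest on day 14 at 10.2 CPM.

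T (Brachyury, ENSMUSG00000062327, chr17:8434423-8442496 in GRCm38) is the T-box factor required for mesoderm formation and axial elongation. It had 76, 1017, 146, 74 and 2 counts in WT#20D-17 on days 0, 3, 5, 7 and 14. Day 3 was highest, at 43.4 CPM (40.8 to 46.2), which was 14.1 times day 0 (exact counting interval 11.1 to 18.0). Days 0, 5 and 7 were at 3.09, 6.25 and 3.26 CPM. By day 5 the level was 0.144 times that of day 3 (0.120 to 0.171). WT#1-4 had 18, 13, 22, 13 and 2 counts. Nox4-/- #5-8 had 20, 18, 11, 12 and 11, and Nox4-/- #5-23 had 4, 13, 6, 5 and 6. No library of these 3 lines passed 0.812 CPM, and their T showed no day whose interval stood apart from the others. The day 3 level of WT#20D-17 was 53.4 times the highest level of the other lines. On day 14 WT#20D-17 had fallen to 2 counts and lay within their range.

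Eomes (ENSMUSG00000032446, chr9:118478212-118486132), a T-box factor of the early streak needed for definitive endoderm and the exit of mesoderm, reached the highest CPM of the 9, in WT#20D-17 on day 3. In that line it had 850, 2802, 673, 878 and 87 counts. Day 3 was highest at 120 CPM (115 to 124), 3.46 times day 0 (3.20 to 3.74). It then rose again from day 5 to day 7, by 1.34 times (1.21 to 1.49). Unlike T, Eomes was well above the floor in all 20 libraries. WT#1-4 had 30, 86, 163, 225 and 88 counts, Nox4-/- #5-8 had 40, 145, 176, 98 and 78, and Nox4-/- #5-23 had 39, 63, 115, 83 and 138. In these lines the lowest library was day 0, between 1.15 and 1.61 CPM, and the highest fell on day 7, day 5 and day 14 in that order. The day 3 to day 0 ratio was 2.99 (1.95 to 4.69) in WT#1-4, 3.81 (2.67 to 5.56) in Nox4-/- #5-8 and 1.99 (1.31 to 3.05) in Nox4-/- #5-23. The intervals of WT#1-4 and Nox4-/- #5-8 took in the ratio of WT#20D-17 and that of Nox4-/- #5-23 lay below it, while the day 0 level was 34.5 CPM in WT#20D-17. Its exons overlap Gm33460 on the opposite strand, which had at most 15 counts in a library.

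Tbx6 (ENSMUSG00000030699, chr7:126781483-126785560), a T-box factor that commits cells to presomitic mesoderm rather than neural fate, followed another course. WT#20D-17 had 18, 42, 70, 19 and 68 counts, with no day apart from the rest. WT#1-4 had 64, 71, 56, 198 and 207, Nox4-/- #5-8 had 22, 39, 42, 63 and 119, and Nox4-/- #5-23 had 15, 14, 42, 47 and 73. Day 14 was the highest day in all 4 lines, and its interval stood apart in WT#1-4 (10.2 CPM) and Nox4-/- #5-8 (5.48 CPM). The day 14 to day 0 ratio was 4.17 (3.13 to 5.6) in WT#1-4, 4.77 (2.81 to 8.53) in WT#20D-17, 6.19 (3.90 to 10.2) in Nox4-/- #5-8 and 4.86 (2.76 to 9.12) in Nox4-/- #5-23. The 4 intervals overlapped.

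Among the homeobox genes, Mixl1 (ENSMUSG00000026497, chr1:180693043-180697034), a paired-type factor of the streak, was detected in 1 line. It had 36, 475, 85, 151 and 4 counts in WT#20D-17. It had 0 to 3 counts, none above the floor, in all 15 libraries of the other lines. Every WT#20D-17 library was therefore above every other library, and day 3 (20.3 CPM, 18.5 to 22.2) was at least 137-fold higher than the highest floor of the other lines. The day 14 library rested on 4 counts (0.205 CPM, 0.0799 to 0.528). Its interval overlapped that of Nox4-/- #5-8 on day 14, with 3 counts (0.138 CPM, 0.047 to 0.406). The rise from day 0 to day 3 was 13.9 times (9.87 to 20.0), near that of T. A smaller rise followed from day 5 to day 7, by 1.83 times (1.39 to 2.42).

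Lhx1 (ENSMUSG00000018698, chr11:84518284-84525535), a LIM homeobox factor of the anterior streak and head organizer, had 484, 1885, 950, 733 and 83 counts in WT#20D-17. Day 3 was highest, at 80.5 CPM (76.9 to 84.2), 4.09 times day 0 (3.70 to 4.53). It declined more slowly than T, to 0.505 times the day 3 level on day 5 (0.467 to 0.547). WT#1-4 had 0, 2, 10, 9 and 2 counts, Nox4-/- #5-8 had 0, 0, 1, 2 and 0, and Nox4-/- #5-23 had 0, 0, 1, 0 and 0. Only days 5 and 7 of WT#1-4 passed the floor among these 15 libraries, and the day 3 level of WT#20D-17 was 218 times their highest.

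Gsc (goosecoid, ENSMUSG00000021095, chr12:104471209-104473330), a homeobox repressor of the gastrula organizer, had 93, 251, 34, 53 and 5 counts in WT#20D-17. Day 3 stood apart at 10.7 CPM (9.47 to 12.1), 2.83 times day 0 (2.23 to 3.64), and Gsc rose by 1.61 times from day 5 to day 7 (1.03 to 2.55). WT#1-4 had 18, 9, 4, 8 and 2 counts, Nox4-/- #5-8 had 19, 12, 12, 6 and 10, and Nox4-/- #5-23 had 29, 10, 9, 2 and 11. In all 3 of these lines the highest day was day 0, at 0.692 to 1.09 CPM, but its interval overlapped that of another day in each. The day 3 level of WT#20D-17 was 9.84 times their highest.

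The bHLH genes Mesp1 (ENSMUSG00000030544, chr7:79792241-79793788) and Mesp2 (ENSMUSG00000030543, chr7:79810727-79813439) are neighbours on chromosome 7. Mesp1 marks the earliest mesoderm, cardiac progenitors included. It had 2, 126, 12, 13 and 0 counts in WT#20D-17, where no other day passed 10.6% of the day 3 level. Day 3 reached 5.38 CPM (4.52 to 6.40), 66.2 times day 0, with a wide interval (17.9 to 552) because day 0 rested on 2 counts. WT#1-4 had 10, 11, 14, 18 and 18 counts, without a day that stood apart. Nox4-/- #5-8 had 2, 1, 5, 5 and 2, and Nox4-/- #5-23 had 0, 2, 1, 3 and 2. All 5 WT#1-4 libraries were above all 10 Nox4-/- libraries. Mesp2, which sets the boundary of each somite, had 35, 28, 5, 8 and 6 counts in WT#20D-17. Its highest library of all 20 was day 0 of that line (1.42 CPM), with an interval that overlapped that of day 3, and the day 3 to day 0 ratio was 0.840 (0.492 to 1.42). WT#1-4 had 6, 9, 8, 19 and 8 counts, Nox4-/- #5-8 had 0 to 3, and Nox4-/- #5-23 had 1 to 11. Mesp2 did not share the day 3 rise of Mesp1 and showed no day that stood apart in any line.

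Msgn1 (mesogenin 1, ENSMUSG00000047002, chr12:11208360-11208972), a bHLH factor that drives presomitic mesoderm differentiation, had 17 counts in WT#20D-17 on day 3 and 0 in the 19 other libraries. The day 3 level was 0.726 CPM (0.453 to 1.16), at least 4.89-fold higher than the highest floor of the other lines.

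Per kilobase of exon, the order on day 3 in WT#20D-17 was Eomes (28.8 CPM per kb), Lhx1 (19.8), T (18.8), Mixl1 (8.84), Gsc (8.45), Mesp1 (4.22), Msgn1 (1.18), Tbx6 (0.994) and Mesp2 (0.615). The counting intervals of Lhx1 (18.9 to 20.7) and T (17.6 to 19.9) overlapped, as did those of Mixl1 (8.08 to 9.67) and Gsc (7.47 to 9.56), and those of Tbx6 with both Msgn1 and Mesp2. Eomes and Mesp1 stood apart from their neighbours. The factors of the streak and of its anterior end were thus above those of the nascent and presomitic mesoderm.

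**Figure D2:**
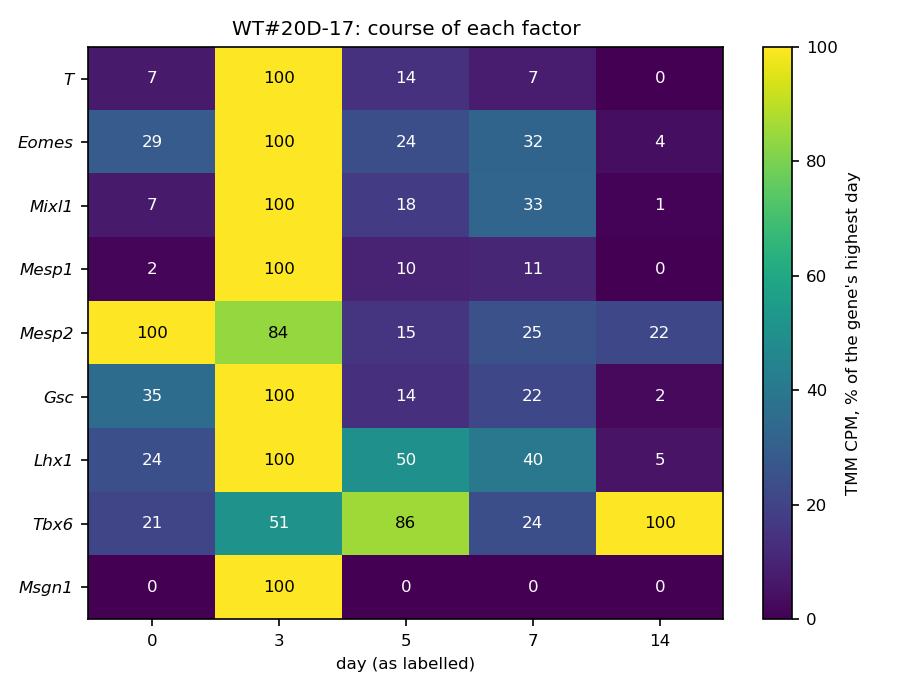
Course of each factor in WT#20D-17, with labelled days as columns, genes as rows, and colour and number giving TMM CPM as a percent of the gene's own highest day in that line. T, Eomes, Mixl1, Mesp1, Gsc, Lhx1 and Msgn1 are at 100 on day 3, Mesp2 on day 0 and Tbx6 on day 14, and Lhx1 is at 50.4 on day 5 where T is at 14.3.

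The comparison of genotypes asked whether loss of Nox4 changed the factors, with days pooled. WT#1-4 against both Nox4-/- lines, the lines the study used, was tested with edgeR's exact test. Of 33860 genes, 1903 (5.62%) passed a false discovery rate (FDR) under 0.01, 560 (1.65%) higher and 1343 (3.97%) lower in Nox4-/- libraries. Among the 9 factors Mesp1 alone passed, and was lower in Nox4-/- libraries by 2.53 on the log2 scale (log2 fold change -2.53, FDR 1.243e-06). Mesp1 was also the single factor whose WT#1-4 libraries all lay above the Nox4-/- libraries, as did 2.05% of all genes. Both groups were under 1 CPM, so the call compares 10 to 18 counts with 0 to 5. Lhx1 (log2 fold change -3.08, FDR 0.02007) and Tbx6 (-1.31, FDR 0.09354) did not pass. T (-0.24), Eomes (-0.23), Mixl1 (0.34) and Gsc (0.59) had an FDR of 0.7696 or more, and Mesp2 (-1.08) one of 0.3702. Days of a line are not independent cultures of a genotype, so these values measure the spread over days, and over lines only among the Nox4-/- libraries. With the line as the unit, 2 wild type against 2 Nox4-/- lines, 0 of 33696 genes (0%) passed by the quasi-likelihood test (2252 at an unadjusted p under 0.05), and Mesp1 had an FDR of 0.7322.

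The wild type line chosen set which factors differed. Set against the same 10 Nox4-/- libraries, WT#20D-17 gave other calls: 8755 genes (25.9%) passed, 5429 of them (16.0%) lower in Nox4-/- libraries, and 6 of the 9 factors were lower in Nox4-/- libraries. The log2 fold changes were -4.65 for T, -3.51 for Eomes, -7.11 for Mixl1, -3.69 for Mesp1, -2.93 for Gsc and -10.68 for Lhx1. Mixl1 and Lhx1 had every WT#20D-17 library above every Nox4-/- library, as did 8.82% of all genes. For Mixl1 the lowest WT#20D-17 library, day 14, had 4 counts against at most 3. Mesp2 (FDR 0.0145), Msgn1 (FDR 0.05818) and Tbx6 (log2 fold change 0.01, FDR 1) did not pass. Mixl1 and Gsc changed direction between these comparisons, from 0.34 and 0.59, neither of which had passed. The comparisons share their Nox4-/- libraries and are given side by side.

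The wild type lines were also compared with each other. Here, as between the Nox4-/- lines, each side was 1 line with its days in place of replicates. The FDRs thus measure the spread over days and not between lines of a genotype. Of 33860 genes, 6005 (17.7%) passed, 3375 of them (9.97%) higher in WT#20D-17. The 5 factors that passed were higher in WT#20D-17, with log2 fold changes of 4.41 for T (FDR 0.0009935), 3.27 for Eomes (FDR 9.865e-05), 7.47 for Mixl1 (FDR 3.424e-07), 3.51 for Gsc (FDR 0.000794) and 7.59 for Lhx1 (FDR 2.385e-13). Mixl1 and Lhx1 had every WT#20D-17 library above every WT#1-4 library, as did 9.07% of all genes. For Mixl1 the lowest WT#20D-17 library, day 14, had 4 counts against at most 2. With day as a replicate block (13.1% of genes passing), T (FDR 0.01228) and Eomes (FDR 0.01648) no longer passed. Without the day 3 libraries (12.8% of genes passing), T (FDR 0.05659) and Gsc (FDR 0.02647) no longer passed, while Eomes, Mixl1 and Lhx1 did. Mesp1 had a log2 fold change of 1.17 with day 3 and -1.06 without it, neither passing, and its CPM was higher in WT#1-4 than in WT#20D-17 on each day but day 3. On days 5 (0.517 and 0.514 CPM) and 7 (0.681 and 0.574 CPM) the intervals of the lines overlapped. The Nox4-/- lines differed in 749 genes (2.21%) and in none of the 9 factors (lowest FDR 0.1829, for Mesp2).

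**Figure D3:**
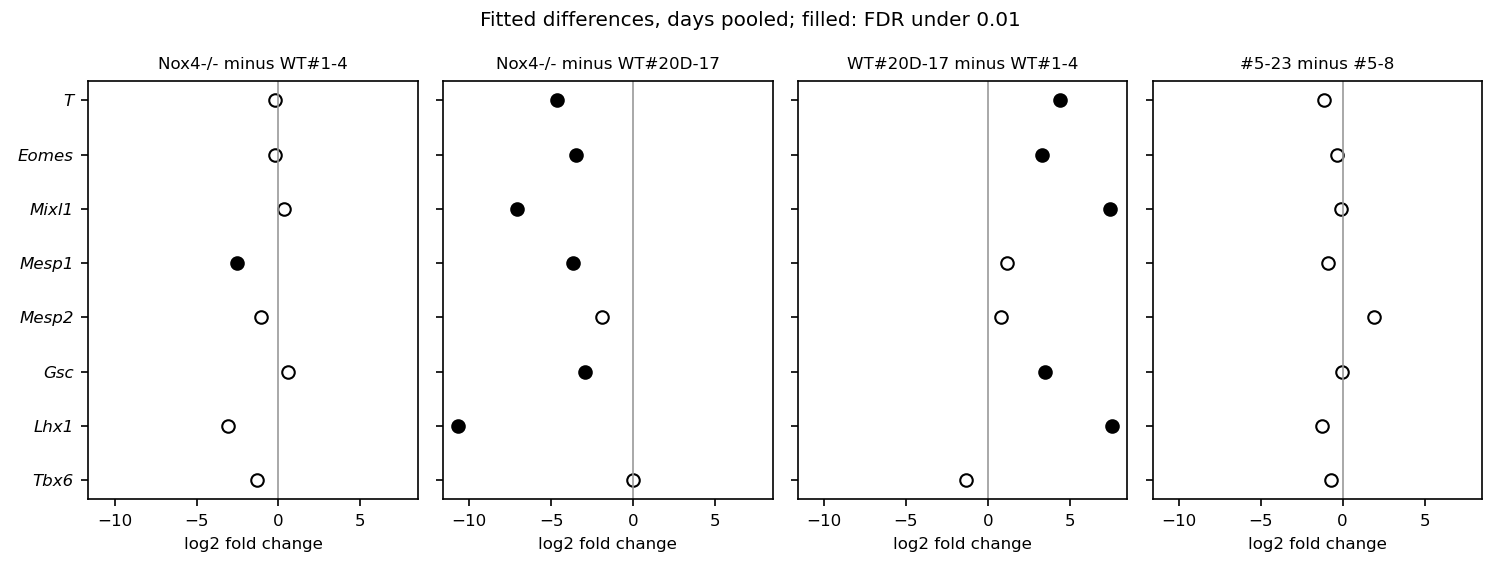
Fitted log2 fold changes, days pooled, of 8 factors in 4 comparisons, with filled points for FDR under 0.01. Msgn1 is left out because all libraries but 1 are at 0, and 1 point is filled in the first comparison (Mesp1), 6 in the second, 5 in the third and none in the fourth.

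Change over days was tested across all 4 lines with edgeR's quasi-likelihood F test. Of 17827 genes that passed the filter on low counts, 591 (3.32%) changed, and none of the 8 factors tested did, Msgn1 having been filtered out. With line as a replicate block, 3134 genes (17.6%) passed, and Tbx6 was the factor among them (FDR 0.005613). Without WT#20D-17 and with the block, 3948 of 17023 genes passed (23.2%), Tbx6 (FDR 0.0006758) and Eomes (FDR 0.00644) among them, and Mixl1 and Lhx1 were filtered out. Day 3 against day 0 gave 0 genes (0%, 502 at an unadjusted p under 0.05) and 25 (0.14%) with the block, and no factor of those tested. DESeq2 gave 15 genes. Among the factors it returned an FDR for Mesp1, Mesp2 and Tbx6 alone, none of which passed, so the others were not tested by it. Without WT#20D-17 and with the block, day 3 against day 0 gave 104 of 17023 genes (0.611%) and no factor, with an FDR of 0.05732 for Eomes. The genotype by day interaction gave 0 genes (0%, 257 at an unadjusted p under 0.05), 2 (0.0104%) with the block and 12 by DESeq2, and no factor, and 0 genes without WT#20D-17.

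Genes around the factors were counted from lists. Of 15 streak inducing signals, 4 were lower in Nox4-/- libraries than in WT#1-4 and none was higher, namely Nodal (log2 fold change -4.66, FDR 2.844e-13), its transcriptional partner Foxh1 (-2.11), Fgf8 (-3.71) and the Nodal antagonist Lefty2 (-2.56). Of all genes, 3.97% were lower. Fgf8 (FDR 0.004208) rested on 0, 3, 7, 8 and 3 counts in WT#1-4, near the floor, against 0 to 2 in Nox4-/- libraries. The list's median log2 fold change was -0.14, against 0.00 over all genes. Against WT#20D-17, 12 of the 15 were lower in Nox4-/- libraries and 1 was higher, where 25.9% of all genes differed. Nodal had 111, 206, 216, 121 and 5 counts in WT#1-4, 1 to 11 in the Nox4-/- libraries, and 3546, 1393, 860, 739 and 141 in WT#20D-17. In WT#20D-17, 6 of the 15 signals were highest on day 0, Nodal among them, 3 on day 3 (Foxh1, Wnt3 and Fgf8), 3 on day 5, 1 on day 7 and 2 on day 14. Between the wild type lines, 8 of the 15 were higher in WT#20D-17 and none lower, beside 9.97% of all genes higher, with a median of 3.48, or 2.12 with the 1 gene at 0 throughout WT#1-4 set to the bound that the floor allows.

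Of 20 other streak and nascent mesoderm genes, 4 were lower in Nox4-/- libraries than in WT#1-4 and none higher, beside 3.97% of all genes lower. These were Hand1 (-3.17), Pdgfra (-1.83) and Kdr (-2.53), which mark mesoderm that has left the streak, and Cer1 (-4.43), an antagonist made by anterior endoderm. Cer1 (FDR 0.009658) rested on 0, 3, 7, 16 and 0 counts in WT#1-4, against 0 or 1 in Nox4-/- libraries. The list's median was -1.91, or -1.56 with the 3 genes at 0 in a whole group set to such a bound. Against WT#20D-17, 17 of the 20 were lower in Nox4-/- libraries, beside 16.0% of all genes. Between the wild type lines 16 of the 20 were higher in WT#20D-17, beside 9.97% of all genes, with a median of 5.45. In WT#20D-17, 7 of the 20 were highest on day 3, 8 on day 5, 2 on day 7, 2 on day 14 and 1 on day 0. In that line, Sp5, a Wnt target, had 15, 404, 128, 117 and 10 counts and was highest on day 3, while Sox17, an endoderm factor, had 203, 1732, 2666, 3249 and 2400 and Hand1 had 4, 181, 3149, 2044 and 866. Sox17 was chosen after its values were seen.

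Of 12 presomitic and somite genes, Pax3 was higher in Nox4-/- libraries than in WT#1-4 (log2 fold change 5.16) and Ripply1 (-3.13) and Tcf15 (-2.58) were lower, 3 of 12 where 5.62% of all genes differed. Pax3, which is also a dorsal neural tube factor, had 12 to 32 counts in Nox4-/- #5-8, 48 to 142 in Nox4-/- #5-23 and 0 to 3 in WT#1-4. The list's median was -0.26. Between the wild type lines 4 were higher in WT#20D-17 and 1, Lfng, lower, where 17.7% of all genes differed. Against WT#20D-17, 5 were lower and 1 higher in Nox4-/- libraries, where 25.9% differed. Of 6 epiblast genes, Zic2 alone differed between Nox4-/- libraries and WT#1-4 (-0.64, which was also the list's median), and 4 were higher in WT#20D-17 than in WT#1-4, beside 9.97% of all genes. The same number, 4 of 6, was lower in Nox4-/- libraries than in WT#20D-17, beside 16.0% of all genes. Their summed level in WT#20D-17 fell from 1330 CPM on day 0 to 853 on day 3 and 95 on day 14, and lay between 45.9 and 118 CPM in the other lines.

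**Figure D4:**
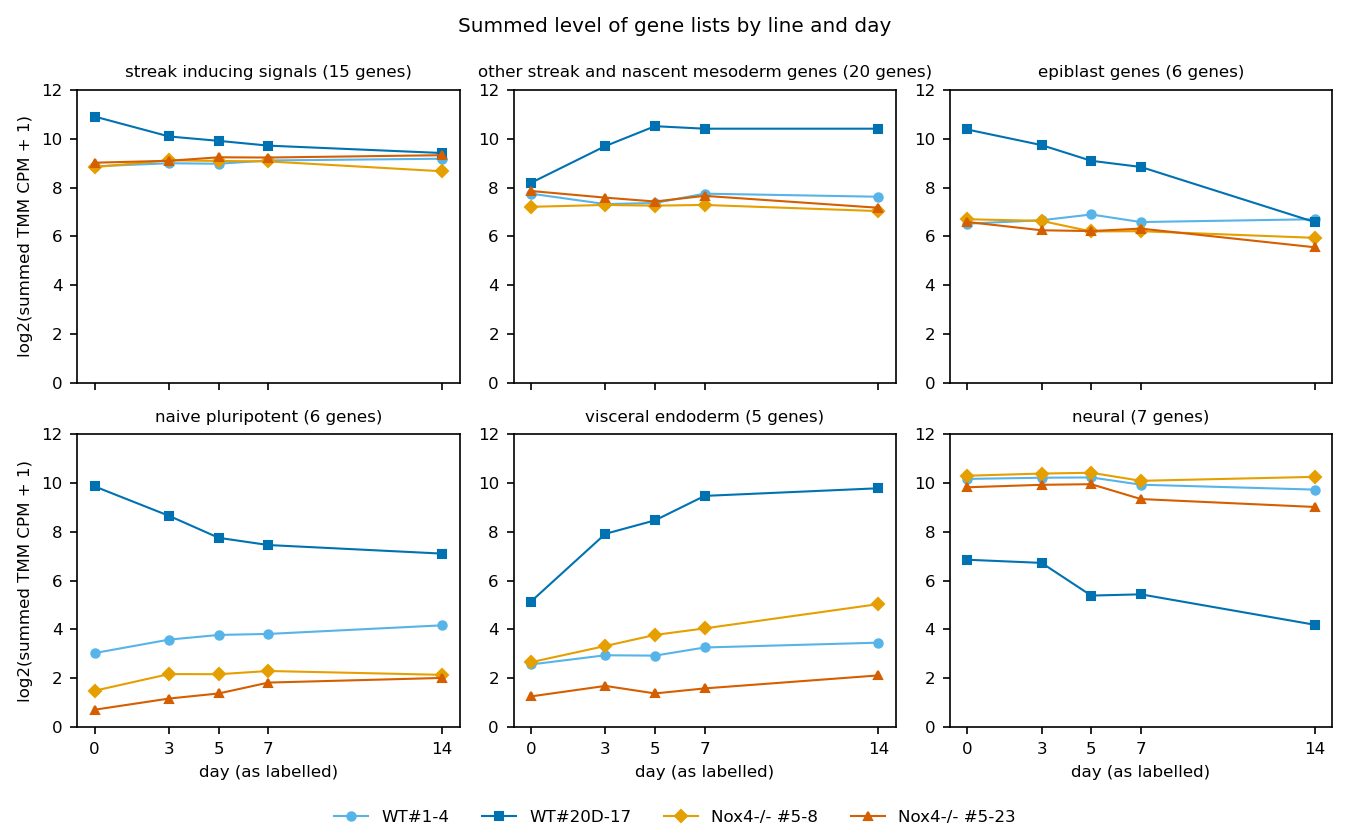
Summed level of 6 gene lists by labelled day, as log2(summed TMM CPM + 1), with 1 point per library and colour and marker by line. WT#20D-17 is highest on day 0 in the epiblast and naive pluripotency panels, rises in the visceral endoderm panel to 882 CPM on day 14, and lies below the other lines in the neural panel.

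Some of the 9 factors are also used outside the streak, so other cell types were read beside them. Eomes, Lhx1 and Gsc are expressed in visceral endoderm, and 5 visceral endoderm genes summed to 34.3, 241, 354, 710 and 882 CPM in WT#20D-17, against at most 31.9 CPM in the other lines. In both Nox4-/- lines 4 of the 5, Afp, Ttr, Apoa1 and Apoa4, were at or under the floor on every day. In WT#20D-17 from day 7 to day 14, Afp went from 268 to 653 CPM, whereas Ttr went from 276 to 92.9, Apoa1 from 103 to 64.8 and Apoa4 from 27.4 to 10.5 CPM. Eomes is also a trophoblast factor, and the 6 trophoblast genes summed to 37.7, 50.1, 184, 134 and 194 CPM in WT#20D-17 and to 4.80 to 32.5 CPM elsewhere. Single genes made up much of these WT#20D-17 sums: Tfap2c on day 0 (35.0 CPM), Hand1, also in the nascent mesoderm list, on day 5 (135 CPM), and Tpbpa on day 14 (73.0 CPM). Elf5 was at most 3.24 CPM in that line. Ascl2 was lower there on day 0 (1.99 CPM) than in Nox4-/- #5-8 (7.89) and Nox4-/- #5-23 (10.1). T marks the notochord, whose 4 genes summed to 19.5 to 99.1 CPM in WT#20D-17 and to at most 4.53 CPM elsewhere. Of these 4, Foxa2, which is also an endoderm factor, had 320, 1209, 2205, 1936 and 1269 counts in WT#20D-17 and Shh had 0, 30, 55, 40 and 3, while Noto was at or under the floor in all 20 libraries. Lhx1 marks the intermediate mesoderm, where Pax2, Pax8, Osr1 and Wt1 summed to 3.54 to 16.9 CPM in WT#20D-17, highest on day 0, and to at most 0.621 CPM elsewhere. Wt1 alone was 16.5 CPM in WT#20D-17 on day 0. Gsc is expressed in head mesenchyme, whose 4 genes summed to 0.732 to 12.0 CPM in WT#20D-17 and to 1.62 to 31.0 elsewhere. Eomes is used in T and NK cells, and Cd3e, Cd8a and Tbx21 summed to at most 2.90 CPM in any library. Neuronal Tbr1 was at most 4 counts. Feeder fibroblast genes (8) summed to 25.1, 107, 381, 2580 and 2930 CPM in WT#20D-17 and to 18.3 to 131 CPM elsewhere. In WT#20D-17, 1 of the 8, Thy1, was highest on day 0, 3 were highest on day 7 and 4 on day 14. The part of these cell types in the levels of the 9 factors was not tested.

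The genes most like T over the 20 libraries, by Pearson's r of log2(CPM + 1) among 19377 genes, were Cyp4f15 (0.975), Car3 (0.963), Mat1a (0.957), Ltb (0.956) and Gm34059 (0.953). Those most like Eomes were Cnih3 (0.951), Aldh1l1 (0.947), Kremen2 (0.939), Shisa2 (0.936) and Apobec2 (0.934). Those most like Mixl1 were Gm34059 (0.987), Sp5 (0.983), Cyp4f15 (0.981), Slc44a5 (0.981) and Car3 (0.979). T itself had an r of 0.944 with Mixl1, 0.913 with Gsc, 0.869 with Eomes, 0.864 with Lhx1, 0.802 with Mesp1, 0.551 with Mesp2 and -0.206 with Tbx6. These values describe 20 libraries of 4 lines in which WT#20D-17 stands apart, and 1 library, its day 3, is the highest point for T, Mixl1 and their likes. Car3, for example, was at 24.8 CPM there and at most 0.151 CPM in the other lines. Over the 15 libraries without WT#20D-17, an alternative added after seeing the data, r was lower for 14 of these 15 pairings of a factor with its most like genes and could not be computed for Mat1a, which had 0 counts there. The pairings were picked for a high r over all 20 libraries, so a lower r without WT#20D-17 was close to fixed in advance. Over those 15 libraries T had an r of 0.429 with Cyp4f15 and 0.481 with Car3. Mixl1, at or under the floor in those libraries, had an r of 0.03 with Sp5. Eomes had an r of 0.779 with Shisa2, 0.7 with Apobec2 and 0.621 with Cnih3. T had an r of -0.035 with Eomes and 0.211 with Mixl1 there.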

How the data were processed

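Paired-end libraries (Illumina TruSeq Stranded mRNA) were, per the study's methods, trimmed with fastx_toolkit, mapped to GRCm38 (Ensembl annotation) with STAR 2.6.0c and quantified with RSEM 1.3.1. The deposited values are expected counts per gene and library, with no normalization by the authors, and 9.92% of values carry decimals. The strand setting of RSEM is not given in the sources used here. Counts were rounded to whole numbers. Gene symbols, positions and exon lengths came from GENCODE M21, and promoter windows from RefSeq.

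Each library was assigned by its label to a line and day. WT#1-4 was compared with both Nox4-/- lines by edgeR's exact test (edgeR 4.0.16, R 4.3.3, TMM, genes above 0 in at least 1 library, Benjamini-Hochberg FDR under 0.01), as were the lines of each genotype. Day and interaction used edgeR's quasi-likelihood F test with upper quartile scaling and filterByExpr. DESeq2 1.42.0 served as an alternative. The fits were tested on simulated data. Day numbers mark libraries of the same line, and deviations of libraries of a line from the mean of their genotype and day correlated (mean r 0.791 for wild type and 0.543 for Nox4-/- over 10 pairs of days and 16516 genes). Line as block for day tests and day as block for line tests were therefore run as alternatives. The main tests used no block. The named genes were the 9 factors, Nox4, up to 4 genes per list past the threshold in the genotype or day test, and the 5 genes most like T, Eomes and Mixl1 among genes with at least 10 counts in at least 2 libraries. Nanog, Sox17 and Lfng were added after their values were seen. The factors and lists were chosen with earlier results of these data known. The marker Ncr1 had no count above 0 and did not enter.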

Additional observations from a re-analysis of the deposited data

How the results depend on the processing

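Of the members' results, Mesp1 kept its direction and its call under the alternatives to the comparison of WT#1-4 with the Nox4-/- lines (FDR 1.243e-06 to 0.003321) except with the line as the unit (FDR 0.7322), and was filtered out by filterByExpr. Mixl1 (log2 fold change -7.11) and Gsc (-2.93) reversed when WT#20D-17 replaced the other wild type line, and Mixl1 (-6.1) with all 20 libraries (FDR 0.000313). Gsc (-2.04, FDR 0.02692) with all 20 libraries, and Mixl1 (-6.21) and Gsc (-1.99) with the line as the unit, also changed sign without passing. The count of 1903 genes became 8755 with WT#20D-17, 4074 with all 20 libraries, 0 with the line as the unit (where 4 lines enter in place of 15 libraries), 1227 by the quasi-likelihood test, 1219 at an FDR of 0.001, 1268 without day 5 and 1111 without day 7, and ran from 1498 to 1961 when a Nox4-/- line was left out. Change over days gave 591 genes, 3134 with line as a replicate block (3203 with TMM), 2037 by DESeq2, 1460 at an FDR of 0.05 and 0 to 3948 when a line was left out, the highest without WT#20D-17 and with the block, an alternative added after seeing the data. Without the block it gave 1513 genes without WT#20D-17, 2 without WT#1-4, 0 without Nox4-/- #5-8 and 1 without Nox4-/- #5-23. Day 3 against day 0 gave 0 genes, 25 with the block (29 with TMM), 15 by DESeq2 and 0 to 104 when a line was left out. The interaction gave 0 genes, 2 with the block (2 with TMM), 12 by DESeq2 and 0 to 16 when a line was left out, the 16 without WT#1-4. The Nox4-/- lines differed in 749 genes, 266 by the quasi-likelihood test, 2144 with day as a replicate block, 1166 by DESeq2, 365 without day 3, 271 without day 5 and 307 without day 7. At 0.5 CPM in place of 1 CPM, up to 4 factors were present in a library of the 3 other lines in place of 2, and 9 in WT#20D-17 on day 3. Further calls of single factors appeared against WT#1-4, Tbx6 with day as covariate (FDR 0.002449), Mesp2 without Nox4-/- #5-23 (FDR 0.006752) and Lhx1 without day 0 (FDR 0.003953), while T, Eomes, Mixl1 and Lhx1 passed with all 20 libraries. The FDR of T between the wild type lines ran from 2.083e-05 to 0.05659, and that of Tbx6 over days from 0.0006758 to 0.7197. Where not given here, the cause was not tested. With 1 library per line and day, the day 3 peak of WT#20D-17 has no replicate, and genes under the floor of 3 counts could not be told from 0.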
